A study of Mus musculus with 8 samples.

Results

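The 9 core pluripotency genes Pou5f1, Sox2, Sall4, Lin28a, Utf1, Tdgf1, Dppa5a, Fbxo15 and Trim71 were taken by symbol from count tables of 55418 genes and followed through depletion of Hira, Ubn1 or Ubn2. All 9 symbols were found, and all 9 passed the filter on low counts in every comparison. In control ESCs they covered a wide span of levels. After Ubn2 depletion Lin28a fell and Sall4 and Fbxo15 rose, Dppa5a and Tdgf1 fell after each of the 3 depletions, and Sox2 passed the test in none of the 3. Fbxo15 fell after Hira depletion and rose after Ubn2 depletion.

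Embryonic stem cells keep the capacity to form all tissues of the embryo through a network of transcription factors in which Oct4, the product of Pou5f1, and Sox2 bind DNA together. RNA-binding proteins such as Lin28a and Trim71, the surface co-receptor Cripto (Tdgf1) and a set of genes used as markers of the undifferentiated state, among them Utf1, Dppa5a and Fbxo15, are expressed alongside them and are shut off in most differentiated cells. Hira, Ubn1 and Ubn2 are subunits of a histone chaperone that places the variant histone H3.3 on chromatin outside replication.

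RNA-seq was done in 8 libraries from E14, a mouse ESC line (strain given as 12910la) grown without feeders on 0.2% gelatin in 15% FBS and 10 ng/ml LIF. Control, Hira knockdown, Ubn1 knockdown and Ubn2 knockdown cells had 2 libraries each, and nothing states whether these came from separate cultures, so p-values measure only the spread between these libraries. Per the protocol given for all 4 groups, cells received 1000 ng of a pSUPER-puro plasmid expressing an shRNA, and puromycin at 1 µg/ml was added 24 h later for 3 days. The control genotype is labelled wild type, while the study's methods name a luciferase shRNA as the knockdown control. Knockdown lowers a transcript in a selected pool of transfected cells and does not delete the gene. Totals lay between 19710040 and 32706053 counts per library, and the 9 genes had between 1449 and 50049 counts each in any library. Levels are given as CPM, the standard per-library scaling of gene counts, here with TMM-scaled library sizes. The smallest two-sided p of an exact permutation test with 2 values a side is 0.333, so p-values come from edgeR's quasi-likelihood test fitted over all genes with Benjamini-Hochberg adjustment. Below, a gene rose or fell where this adjusted p was under 0.05, and it was called where its fold change was also over 1.5.

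The targeted genes were checked first. Hira went from 89.4 and 97.6 CPM in control to 10.0 and 10.4 CPM after its depletion, Ubn1 from 53.0 and 44.1 to 23.8 and 23.8 CPM, and Ubn2 from 50.1 and 51.7 to 30.1 and 24.6 CPM. Their log2 fold changes of -3.22, -1.03 and -0.90 show that the depletions were unequal in depth at the RNA level. Protein was not measured in these libraries, and the paper reports efficient depletion of each protein by western blot. By qPCR and western blot, the paper also reports no obvious effect of these depletions on the pluripotency genes Oct4, Sox2 and Nanog. The 3 comparisons with control share the same pair of control libraries, so values of one gene after different depletions are given side by side and are not independent of each other. In bulk RNA, fewer cells of a type and less RNA per cell cannot be told apart.

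Compared per kilobase of exon, the members in control ESCs ran from Dppa5a at 2095 ± 12.2 CPM per kb to Trim71 at 23.9 ± 0.214 CPM per kb (SD, n = 2). Tdgf1 at 589 ± 15.4 and Pou5f1 at 539 ± 27.1 CPM per kb followed Dppa5a, then Utf1 at 270 ± 23.5 and Sox2 at 181 ± 14.7 CPM per kb. Lin28a at 41.2 ± 1.19, Sall4 at 34.3 ± 1.96 and Fbxo15 at 33.8 ± 3.44 CPM per kb formed the lower end with Trim71. The control libraries of Sall4 and Fbxo15 overlapped, and those of all other neighbours in this order did not. Lengths are of the union of annotated exons, so the order also depends on the annotation. After Ubn2 depletion Lin28a, sixth in control, was last at 18.3 ± 0.257 CPM per kb (SD, n = 2), below Trim71 at 28.9 ± 1.77 CPM per kb. Pou5f1 stood above Tdgf1 after Ubn1 and Ubn2 depletion, at 469 and 498 against 446 and 343 CPM per kb.

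**Figure D1:**
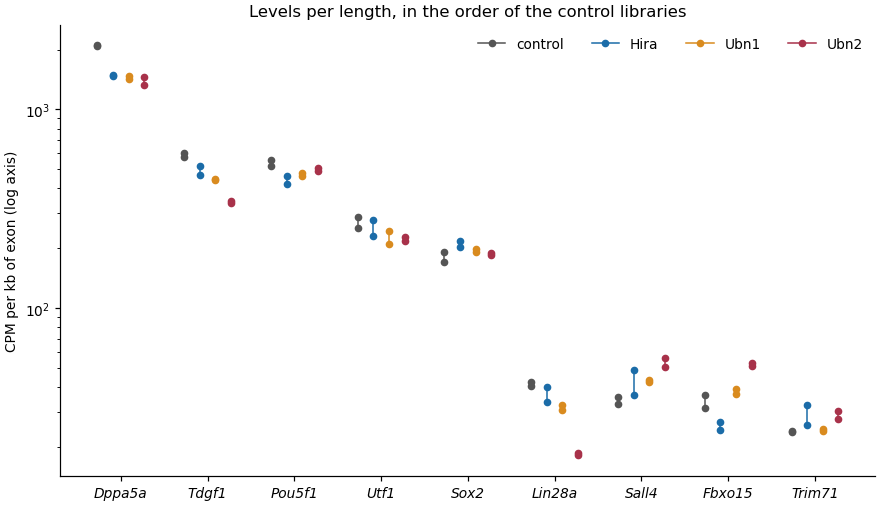
Level of each gene per kilobase of exon (CPM per kb, log axis) in control and after Hira, Ubn1 or Ubn2 depletion; each point is 1 library and a line joins the pair of libraries of a group. Dppa5a stood highest in all groups, and Lin28a dropped to 18.3 CPM per kb after Ubn2 depletion.

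Over the 9 genes, 0 were called with edgeR after Hira depletion, where 10.8% of the 19035 genes tested were called higher and 5.40% lower. DESeq2 also called 0, and 8 of the 9 had an unadjusted p under 0.05, 0 of them with a fold over 1.5. The share of all genes with an unadjusted p under 0.05 was not counted, here or below, so such counts have no background beside them. By the adjusted p alone, 2 rose and 4 fell, against 17.6% and 17.3% of all genes. After Ubn1 depletion 0 were called by edgeR and 0 by DESeq2, beside 1.53% of genes called higher and 1.56% lower, while 6 had an unadjusted p under 0.05 and 0 of those a fold over 1.5. By the adjusted p alone, 1 rose and 3 fell after Ubn1 depletion, against 4.14% and 3.62% of all genes. After Ubn2 depletion 2 were called higher and 3 lower, against 9.59% and 8.75% of the 18219 genes tested. By the adjusted p alone, 3 rose and 4 fell after Ubn2 depletion, against 20.0% and 19.1% of all genes. The 9 had a median log2 fold change of -0.19 under Hira, -0.20 under Ubn1 and -0.12 under Ubn2 depletion, where the medians over all genes tested were 0.01, 0.00 and 0.00. The median size of the change, regardless of sign, was 0.28, 0.26 and 0.59 for the 9 against 0.30, 0.18 and 0.31 for all genes. Nothing particular to the list can be read from 9 genes chosen with earlier results known. Together the 9 genes took 0.518% and 0.541% of the counts in control, 0.484% and 0.494% after Hira, 0.450% and 0.440% after Ubn1 and 0.431% and 0.437% after Ubn2 depletion.

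**Figure D2:**
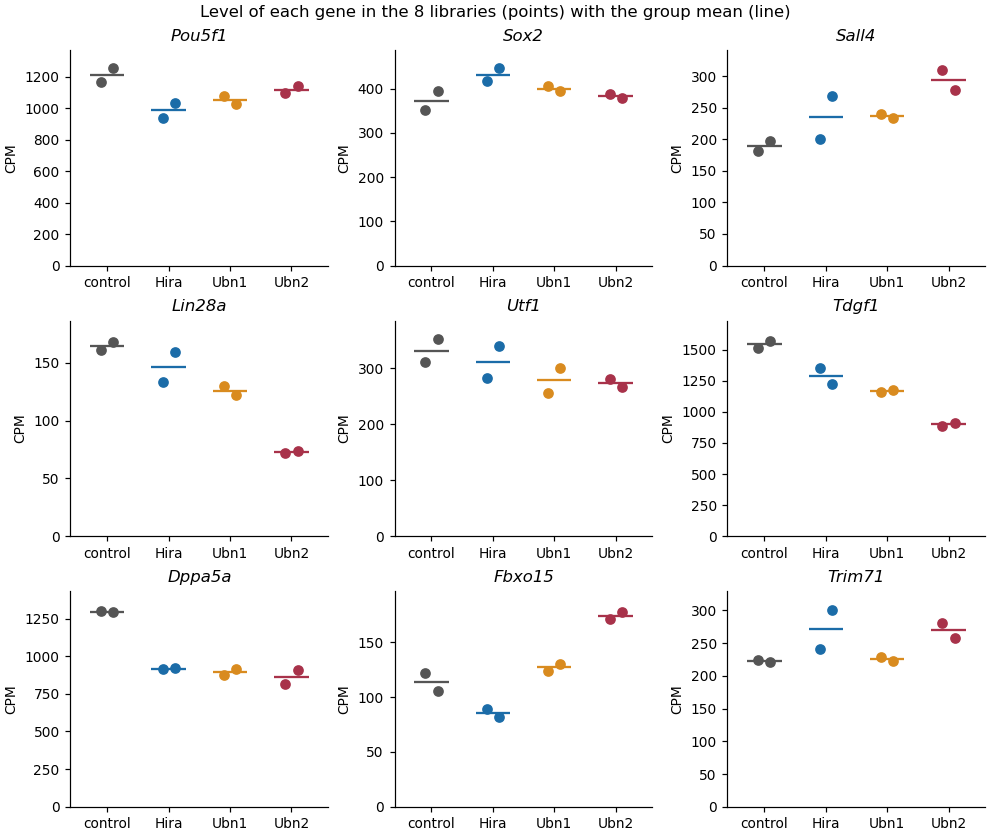
CPM of each of the 9 genes in every library (points) with the group mean (line), each panel with its own axis from 0; the groups are control and Hira, Ubn1 or Ubn2 depletion. Both Ubn2 libraries of Lin28a (72.4 and 73.9 CPM) lay below all other libraries, and both Ubn2 libraries of Fbxo15 (171 and 177 CPM) lay above all others.

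Pou5f1 encodes Oct4, the POU transcription factor at the centre of the network, and lies on the plus strand of chromosome 17 (GRCm38, chr17:35506018-35510772). It had 1169 and 1255 CPM in control, 941 and 1035 CPM after Hira depletion, 1079.6 and 1031 CPM after Ubn1 depletion, and 1096 and 1141 CPM after Ubn2 depletion. All 6 depleted libraries lay below both controls, the Hira pair reaching lowest. Pou5f1 fell after Hira depletion, by 0.31 on the log2 scale (standard error 0.08, edgeR adjusted p = 0.00327). Without control replicate 2 the value was -0.26 and the edgeR adjusted p 0.0816, which did not pass. With Ubn1 depleted the log2 fold change was -0.20 (95% interval -0.39 to -0.01, edgeR adjusted p = 0.191), and with Ubn2 depleted it was -0.12 (95% interval -0.26 to 0.03, edgeR adjusted p = 0.193), neither of which passed. Without Ubn1 replicate 1 the Ubn1 value was -0.24 and passed (edgeR adjusted p = 0.0181). The 3 intervals of the full comparisons lie inside a fold of 1.5 in either direction.

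The annotated antisense gene Gm19553 overlaps exons of Pou5f1 on the other strand. Its counts were between 48.2% and 53.8% of those of Pou5f1 in every library, and its log2 fold changes of -0.32, -0.23 and -0.09 after Hira, Ubn1 and Ubn2 depletion ran beside those of Pou5f1. Neither the strand setting of the counting nor a kit that marks strand is stated in the sources used here, and without strand the reads of a gene and its antisense partner cannot be told apart. The same holds for Gm13061 opposite Lin28a, with counts of 10.9% to 13.6% of Lin28a, for Gm14261 opposite Sall4, at 6.60% to 7.82%, and for C130032M10Rik opposite Trim71, at 4.55% to 6.88%.

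**Figure D3:**
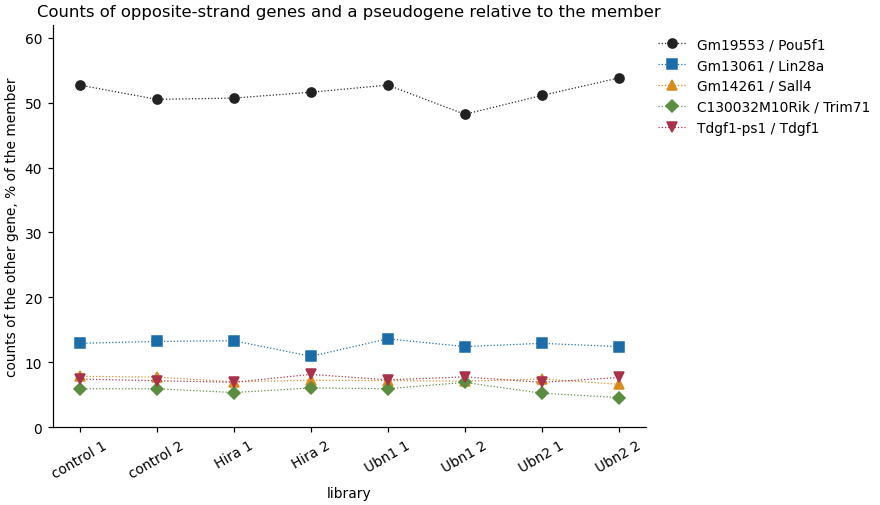
Counts of an overlapping opposite-strand gene or a pseudogene as a percentage of the counts of the member, in each of the 8 libraries (horizontal axis, dotted lines only guide the eye). Gm19553 stayed between 48.2% and 53.8% of Pou5f1, and the other 4 pairs stayed under 14%.

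Sequences around the start sites of Pou5f1, Lin28a and Tdgf1 are shown because Pou5f1 is the core factor of the network and fell after Hira depletion, while Lin28a and Tdgf1 had the largest falls of the 9 after Ubn2 depletion. They run from 250 bases before to 50 bases after the start in RefSeq (GRCm38.p6). Such windows were searched for 6 of the 9 genes, Pou5f1, Sox2, Lin28a, Utf1, Tdgf1 and Trim71. Capitals mark every match, on either strand, to the octamer ATGCAAAT, its shorter form ATGCAAA, the SOX core ACAATG, the GC box GGGCGG, the CACC box GGGCGTGG, the CCAAT box, the TATA box TATAAA and the nuclear receptor motif AGGTCA. The shorter octamer lies inside the longer one.
Pou5f1, plus strand of chr17:35505782-35506081: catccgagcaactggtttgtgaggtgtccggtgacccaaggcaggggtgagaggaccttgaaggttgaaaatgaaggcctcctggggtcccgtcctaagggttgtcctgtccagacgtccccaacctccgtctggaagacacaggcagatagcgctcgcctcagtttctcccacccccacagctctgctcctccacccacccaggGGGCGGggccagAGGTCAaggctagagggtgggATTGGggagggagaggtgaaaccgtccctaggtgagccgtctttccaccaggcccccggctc
Lin28a, minus strand of chr4:134018767-134019066: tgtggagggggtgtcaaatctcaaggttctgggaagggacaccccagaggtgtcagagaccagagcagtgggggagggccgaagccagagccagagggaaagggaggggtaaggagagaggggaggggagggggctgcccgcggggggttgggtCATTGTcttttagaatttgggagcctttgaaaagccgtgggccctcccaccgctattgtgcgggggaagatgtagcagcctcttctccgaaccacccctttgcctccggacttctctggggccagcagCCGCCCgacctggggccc
Tdgf1, minus strand of chr9:110946109-110946408: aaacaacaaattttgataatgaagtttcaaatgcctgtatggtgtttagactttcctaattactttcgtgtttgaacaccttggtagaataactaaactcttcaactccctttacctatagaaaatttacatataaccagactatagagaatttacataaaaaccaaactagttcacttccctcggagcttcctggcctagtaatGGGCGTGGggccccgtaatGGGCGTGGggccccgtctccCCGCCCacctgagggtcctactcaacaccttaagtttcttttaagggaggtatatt
The Pou5f1 window holds a GC box that begins 45 bases before the start, an AGGTCA motif and a CCAAT box on the reverse strand. The Lin28a window holds a SOX core and a GC box, and the Tdgf1 window holds the CACC box at 2 places, in a repeated stretch, and 1 GC box. Among 32851 RefSeq windows of the same length, 35.7% held the GC box, 16.3% AGGTCA, 37.4% CCAAT, 12.6% the SOX core, 5.33% the CACC box, 13.6% TATAAA, 1.74% the octamer and 4.63% its shorter form. CpG observed over expected was 0.37 for Pou5f1, 0.35 for Lin28a and 0.55 for Tdgf1, beside a median of 0.38 over all windows. All 3 printed windows hold the GC box, as do the windows of Sox2, Utf1 and Trim71, which are not printed. RefSeq lists a second start of Pou5f1, whose window (plus strand of chr17:35508557-35508856, not printed) holds 0 GC boxes, a SOX core and a CCAAT box. A match is a description of letters and not a bound site.

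Sox2, the partner of Oct4 (plus strand of chr3:34650405-34652461, GRCm38, a single-exon gene inside the long transcript Sox2ot, whose exons it does not overlap), was among the steadiest of the 9. It had 351.5 and 394 CPM in control, 417 and 447 CPM after Hira depletion, 405 and 395 CPM after Ubn1 depletion, and 389 and 379 CPM after Ubn2 depletion. Both Hira libraries lay above both controls, while the Ubn2 pair fell between them. The log2 fold change of 0.19 after Hira depletion did not pass (95% interval 0.03 to 0.36, edgeR adjusted p = 0.0569). It passed with some alternatives, among them no filter on low counts (0.0466) and without Hira replicate 1 (0.0175, edgeR adjusted p), and over all alternatives the adjusted p ran from 0.00664 to 0.522. After Ubn1 depletion the value was 0.10 (95% interval -0.09 to 0.29) and after Ubn2 depletion 0.04 (95% interval -0.11 to 0.19).

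Sall4, a zinc finger factor that binds Oct4 and the NuRD complex (minus strand of chr2:168748332-168767943, GRCm38), had 182 and 198 CPM in control, 201 and 269 CPM after Hira depletion, 241 and 233.5 CPM after Ubn1 depletion, and 310.4 and 278 CPM after Ubn2 depletion. The Ubn2 pair lay above all other libraries, and the Hira pair was split widely, its first library close to control. Sall4 rose by 0.63 on the log2 scale after Ubn2 depletion, a 1.55-fold change (standard error 0.07, edgeR adjusted p = 9.97e-07). It sits close to the fold threshold: without control replicate 1 the value was 0.57 and without Ubn2 replicate 1 it was 0.55, both under a fold of 1.5. After Ubn1 depletion Sall4 rose by 0.32 (standard error 0.09, edgeR adjusted p = 0.029). Leaving out either control library gave an adjusted p of 0.43 or 0.163 there. After Hira depletion the value was 0.29 (standard error 0.10, edgeR adjusted p = 0.027), but it was 0.06 without Hira replicate 2, and DESeq2 gave an adjusted p of 0.38.

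Utf1 encodes a chromatin-bound protein of undifferentiated cells (plus strand of chr7:139943789-139945112, GRCm38). It had 311 and 351.5 CPM in control, 283 and 339.9 CPM after Hira depletion, 256 and 299.8 CPM after Ubn1 depletion, and 280 and 266 CPM after Ubn2 depletion. The Hira libraries overlapped the controls and the other 4 lay below them. Utf1 fell by 0.28 on the log2 scale after Ubn2 depletion (standard error 0.07, edgeR adjusted p = 0.00495), although the value was -0.19 and the adjusted p 0.1 without control replicate 2. The log2 fold change was -0.26 after Ubn1 depletion (edgeR adjusted p = 0.0981) and -0.11 after Hira depletion (edgeR adjusted p = 0.363), neither of which passed. Both values depended on single libraries. After Ubn1 depletion Utf1 was at -0.16 without Ubn1 replicate 1 and at -0.37 without Ubn1 replicate 2, where it passed (edgeR adjusted p = 0.00104). After Hira depletion it was at 0.02 without Hira replicate 1, at -0.02 without control replicate 2, and at -0.25 without Hira replicate 2, where it passed (edgeR adjusted p = 0.0172).

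Lin28a encodes an RNA-binding protein that blocks the maturation of let-7 miRNAs (minus strand of chr4:134003330-134018841, GRCm38). It had 161 and 168 CPM in control, 134 and 159 CPM after Hira depletion, 129.7 and 122 CPM after Ubn1 depletion, and 72.4 and 73.9 CPM after Ubn2 depletion. The Ubn2 libraries stood far below all others, and the highest of the 6 depleted libraries was still under both controls. After Ubn2 depletion Lin28a fell by 1.17 on the log2 scale, to 0.444 of control (standard error 0.07, edgeR adjusted p = 3.93e-11), the largest change of the 9 in any comparison with control. With single libraries left out the value stayed between -1.21 and -1.14. After Ubn1 depletion Lin28a fell by 0.39 (standard error 0.09, edgeR adjusted p = 0.00689), with an adjusted p of 0.0925 or 0.156 when control replicate 1 or 2 was left out. The change of -0.19 after Hira depletion did not pass (95% interval -0.36 to -0.02, edgeR adjusted p = 0.0853). It was -0.07 without Hira replicate 1 and -0.32 without Hira replicate 2, so its size depended on single libraries. Gm13061, whose exons overlap those of Lin28a on the other strand, changed by -1.22 after Ubn2 depletion. Lin28b, the paralog of Lin28a, stood at -0.30, -0.28 and -0.07 (log2 fold changes for Hira, Ubn1 and Ubn2) and passed in none.

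Trim71 encodes a TRIM-NHL protein that binds and represses mRNAs and is itself a let-7 target (minus strand of chr9:114507133-114564369, GRCm38). It had 224 and 222 CPM in control, 241 and 301 CPM after Hira depletion, 228.5 and 223 CPM after Ubn1 depletion, and 281 and 258 CPM after Ubn2 depletion. The Hira and Ubn2 libraries lay above both controls, with the Hira pair widely split, and the Ubn1 libraries overlapped control. Trim71 rose by 0.27 after Ubn2 depletion (standard error 0.07, edgeR adjusted p = 0.00401), with a value of 0.21 and an adjusted p of 0.0504 without Ubn2 replicate 1. After Hira depletion it rose by 0.26 (standard error 0.09, edgeR adjusted p = 0.0234), yet without Hira replicate 2 the value was 0.09, and leaving out either control library gave an adjusted p of 0.0551 or 0.0764. After Ubn1 depletion it was 0.02 (95% interval -0.17 to 0.20).

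The let-7 miRNAs and the letters that pair with their seed are shown because members that share the site moved in opposite directions. Capitals mark the seed, bases 2 to 8, which is the same in these 4 let-7 miRNAs (RefSeq, GRCm38.p6; chr13:48538239-48538260 minus, chr15:85707325-85707346 plus, chr9:106178846-106178867 plus and chr10:122985698-122985719 minus).
let-7a-5p: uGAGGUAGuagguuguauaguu
let-7b-5p: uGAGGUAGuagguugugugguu
let-7g-5p: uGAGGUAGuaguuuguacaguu
let-7i-5p: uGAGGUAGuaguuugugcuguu
The 7 bases that pair with this seed, CTACCTC, were searched in the longest annotated 3′ UTR of each gene (GENCODE M21, GRCm38). They occurred 4 times in Trim71, 2 times in Lin28a, 1 time in Sall4 and 0 times in the other 6. All of these sites lie on the minus strand, and capitals mark the match.
Lin28a, chr4:134005185-134005206: gcctgttgaaCTACCTCatttt
Lin28a, chr4:134004547-134004568: cgccacaaacCTACCTCactgt
Trim71, chr9:114512468-114512489: tgcctaagtcCTACCTCagctt
Trim71, chr9:114512372-114512393: taatttctatCTACCTCaactc
Trim71, chr9:114509043-114509064: tatggattttCTACCTCaattt
Trim71, chr9:114509017-114509038: aaaaagttgtCTACCTCacgtc
Sall4, chr2:168748936-168748957: tttaatttatCTACCTCaatta
Among 3′ UTRs within 10% of the same length, 28.9% of 380 held the match at the length of Trim71, 13.6% of 1187 at that of Lin28a and 11.1% of 1411 at that of Sall4. The other 6 genes have shorter 3′ UTRs of 97 to 1101 bases, lengths at which 0.636% to 8.08% held the match. Of the 3 genes that hold it, Lin28a fell after Ubn2 depletion while Sall4 and Trim71 rose. let-7 itself was not measured in these mRNA libraries, and a match is no evidence of regulation in these cells.

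Dppa5a encodes a KH-domain protein of the germ line and ESCs (minus strand of chr9:78367052-78368177, GRCm38) and, with Tdgf1, was 1 of 2 members that fell after all 3 depletions. It had 1302 and 1291 CPM in control, 913 and 921 CPM after Hira depletion, 877.5 and 912 CPM after Ubn1 depletion, and 818 and 905 CPM after Ubn2 depletion. All 6 depleted libraries lay well under both controls, the Hira pair just above the other 4, and the Ubn1 and Ubn2 pairs overlapped. Dppa5a fell by 0.52 after Hira depletion (standard error 0.07, edgeR adjusted p = 1.37e-05), by 0.54 after Ubn1 depletion (standard error 0.09, edgeR adjusted p = 0.000209) and by 0.59 after Ubn2 depletion (standard error 0.07, edgeR adjusted p = 1.21e-06). Only the last passed the fold threshold, and without Ubn2 replicate 1 it was -0.52 and did not. Because the 3 values share the control pair, their likeness is partly built in. The pseudogenes Dppa5b and Dppa5c had at most 9 counts in any library.

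Tdgf1 encodes Cripto, the surface co-receptor of Nodal (minus strand of chr9:110939603-110946158, GRCm38). It had 1516 and 1573 CPM in control, 1352 and 1222 CPM after Hira depletion, 1162.5 and 1174 CPM after Ubn1 depletion, and 889.8 and 909.6 CPM after Ubn2 depletion. The libraries of the 4 groups did not overlap, running downward from control through Hira and Ubn1 to Ubn2 depletion. Tdgf1 fell by 0.78 after Ubn2 depletion, to 0.582 of control (standard error 0.07, edgeR adjusted p = 1.32e-08), and the value stayed between -0.81 and -0.76 with single libraries left out. It fell by 0.40 after Ubn1 depletion (standard error 0.09, edgeR adjusted p = 0.00463) and by 0.28 after Hira depletion (standard error 0.08, edgeR adjusted p = 0.00715). Those smaller falls no longer passed when control libraries were left out, with an adjusted p of 0.107 or 0.157 without control replicate 1 or 2 after Ubn1 depletion and 0.0961 without control replicate 2 after Hira depletion. The processed pseudogene Tdgf1-ps1, a near copy, had counts of 6.89% to 8.12% of Tdgf1 and changed by -0.24, -0.36 and -0.78, so reads shared between them make either value uncertain.

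Fbxo15, an F-box gene long used as an ESC reporter (plus strand of chr18:84934782-84981473, GRCm38), was the member whose direction differed between depletions. It had 122 and 105 CPM in control, 89.2 and 81.6 CPM after Hira depletion, 124 and 130.3 CPM after Ubn1 depletion, and 171 and 177 CPM after Ubn2 depletion. The Hira pair lay below both controls, the Ubn1 pair just above them and the Ubn2 pair above all other libraries. Fbxo15 fell by 0.42 after Hira depletion (standard error 0.08, edgeR adjusted p = 0.000561) and rose by 0.62 after Ubn2 depletion, a 1.54-fold change (standard error 0.07, edgeR adjusted p = 9.9e-07). Without control replicate 2 the rise was 0.51, under the fold threshold, and the fall after Hira depletion ran from -0.53 to -0.32 as single libraries were left out. The value of 0.16 after Ubn1 depletion did not pass (95% interval -0.03 to 0.36, edgeR adjusted p = 0.335).

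**Figure D4:**
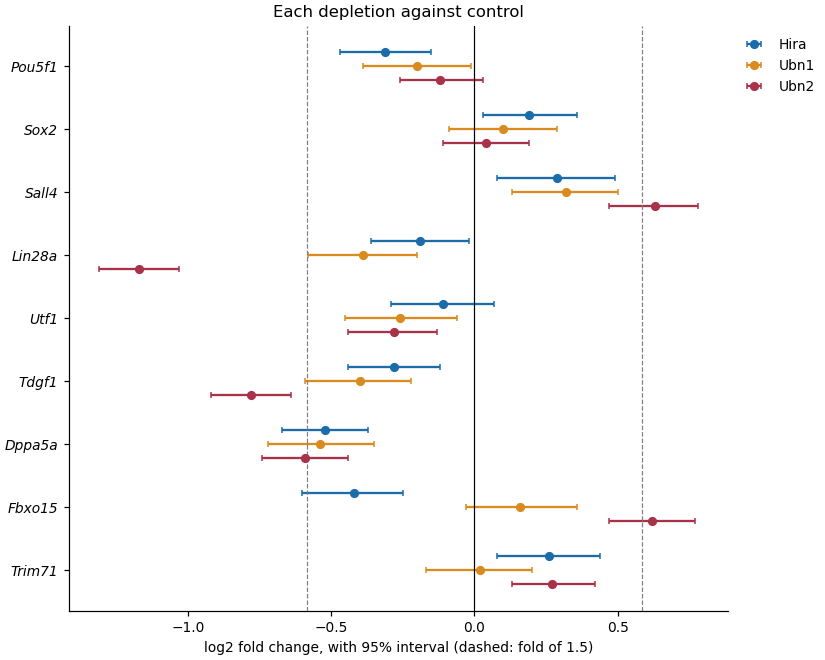
Log2 fold change of the 9 genes after Hira, Ubn1 or Ubn2 depletion against the shared control libraries (points) with the 95% interval of the fit (bars); dashed lines mark a fold of 1.5. Lin28a at -1.17 and Tdgf1 at -0.78 after Ubn2 depletion have intervals wholly beyond the lower line, and Fbxo15 lies at -0.42 after Hira and at 0.62 after Ubn2 depletion.

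Depletions were then compared with each other, in fits without the control libraries. Between Hira and Ubn2 depletion, 1 member was called higher and 1 lower, against 12.0% and 5.61% of the 18563 genes tested, and by the adjusted p alone 2 were higher and 2 lower after Hira depletion, against 18.6% and 17.2%. Lin28a was 2.01-fold higher after Hira than after Ubn2 depletion, a log2 difference of 1.01 (standard error 0.09, edgeR adjusted p = 1.06e-06). Fbxo15 was lower after Hira depletion, by a log2 difference of -1.02 (standard error 0.07, edgeR adjusted p = 2.75e-07). Tdgf1 was higher by 0.52 (standard error 0.08, edgeR adjusted p = 0.0002). Sall4 was at -0.32 (edgeR adjusted p = 0.0342), a difference that was -0.12 without Hira replicate 1 and had an adjusted p of 0.298 with DESeq2. Dppa5a differed by 0.10 (95% interval -0.08 to 0.27), Trim71 by 0.01 (95% interval -0.19 to 0.22), and Pou5f1 by -0.17 (edgeR adjusted p = 0.11).

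Between Hira and Ubn1 depletion 0 members were called by edgeR, against 9.52% of genes higher and 3.16% lower. An unadjusted p under 0.05 was reached by 3 members, and the share of all genes at that threshold was not counted. By the adjusted p alone 0 were higher and 1 lower, against 14.2% and 10.2% of all genes. That gene was Fbxo15, with a log2 difference of -0.56 (standard error 0.10, edgeR adjusted p = 0.000116), just inside the fold threshold, and DESeq2 called it with both thresholds. Between Ubn2 and Ubn1 depletion 0 members were called higher and 1 lower, against 4.61% and 4.09%, and by the adjusted p alone 2 were higher and 2 lower after Ubn2 depletion, against 8.60% and 7.98%. Lin28a was lower after Ubn2 than after Ubn1 depletion by a log2 difference of -0.79 (standard error 0.09, edgeR adjusted p = 9.79e-06). Tdgf1 was at -0.38 (edgeR adjusted p = 0.0119), Fbxo15 at 0.45 (edgeR adjusted p = 0.0014) and Sall4 at 0.31 (edgeR adjusted p = 0.03). The differences of Tdgf1 and Sall4 no longer passed when either Ubn2 library was left out, with an adjusted p of 0.174 and 0.0791 for Tdgf1 and of 0.41 and 0.0515 for Sall4. Dppa5a differed by 0.04 between Hira and Ubn1 depletion (95% interval -0.18 to 0.26) and by -0.06 between Ubn2 and Ubn1 depletion (95% interval -0.26 to 0.15).

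**Figure D5:**
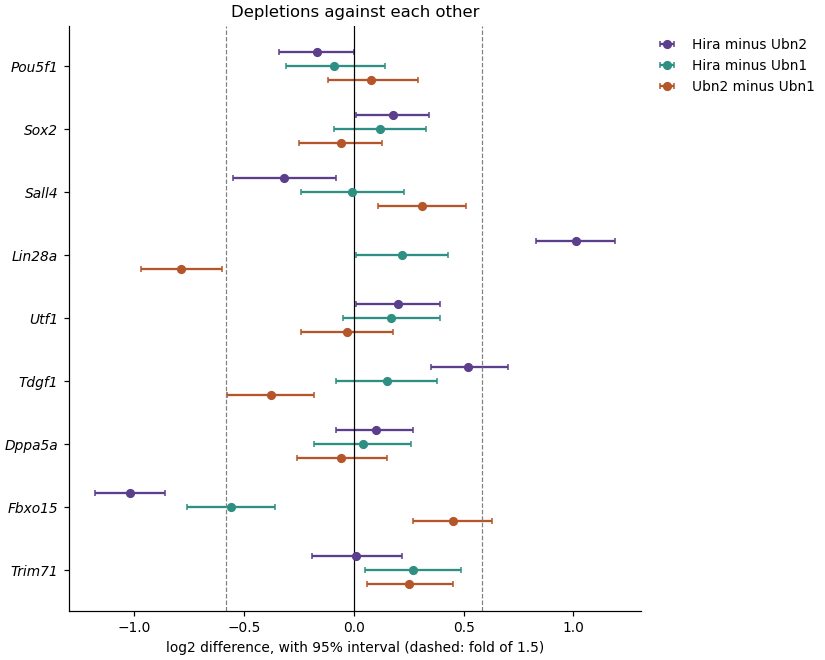
Log2 difference of the 9 genes between Hira and Ubn2, Hira and Ubn1, and Ubn2 and Ubn1 depletion (points) with 95% intervals (bars); dashed lines mark a fold of 1.5. Lin28a (1.01) and Fbxo15 (-1.02) lie at the right and left ends for Hira minus Ubn2, and all 3 intervals of Dppa5a cross 0.

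Genes around the members were read from lists drawn up with earlier results known, and their counts are given as called higher and called lower beside the shares of all genes above. Of 30 other pluripotency network genes tested, 2 and 3 were called with Hira depleted, 3 and 0 of 30 with Ubn1 depleted, and 6 and 2 of 29 with Ubn2 depleted. Nanog, the homeobox factor beside Oct4 and Sox2 and named here after its values were seen, rose by 0.31 after Hira depletion (edgeR adjusted p = 0.00569) and had 0.14 and 0.18 after Ubn1 and Ubn2 depletion, which did not pass. Fgf4, a growth factor target of Oct4 and Sox2, fell by 0.60, 0.29 and 0.62 after Hira, Ubn1 and Ubn2 depletion. The nuclear receptor gene Nr0b1 rose by 1.00 after Ubn2 depletion, and Tcl1 fell by 0.64 after Hira and by 0.77 after Ubn2 depletion. Dnmt3l, a cofactor of DNA methylation, fell by 0.94 after Hira depletion and had 0.04 after Ubn2 depletion.

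Among 24 tested paralogs of the POU, SOX, SALL, LIN28, CRIPTO and TRIM-NHL families, 7 and 2 were called after Hira, 2 and 1 after Ubn1 and 7 and 1 after Ubn2 depletion. Sall3, the paralog of Sall4, rose by 1.43, 1.75 and 2.40 from a control mean of 8.02 CPM. Pou2f3 fell by 1.74, 0.85 and 2.65 from a control mean of 27.3 CPM. Of 17 genes of the Nodal pathway around Tdgf1, 1 and 1, 2 and 0, and 2 and 0 were called after Hira, Ubn1 and Ubn2 depletion. The ligand gene Nodal rose by 0.45, 0.42 and 0.72. The Nodal inhibitors Lefty2 and Lefty1 rose by 1.17 and 0.75 after Ubn1 depletion (both Lefty genes also stand in the network list). Lefty2 fell by 0.43 after Hira and by 0.30 after Ubn2 depletion.

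In the 13 genes of LIN28 and let-7 processing, edgeR called 0 in either direction with Hira or Ubn1 depleted, and 0 higher and 1 lower with Ubn2 depleted. By the adjusted p alone 2 rose and 1 fell, 2 rose and 0 fell, and 4 rose and 1 fell. Dis3l2, the nuclease that degrades tailed let-7 precursors, fell by 0.39 after Hira and by 0.67 after Ubn2 depletion. Of 20 let-7 target genes, 3 and 1 were called after Hira, 0 and 0 after Ubn1 and 3 and 1 after Ubn2 depletion, with medians of 0.04, -0.04 and 0.06 on the log2 scale. Hmga2 rose by 1.22 and Nras fell by 0.81 after Hira depletion, and Ccnd1 rose by 0.78 after Ubn2 depletion. Of 5 mRNAs known as Trim71 targets, 0 and 1, 0 and 0, and 2 and 0 were called. By the adjusted p alone, 2 of them rose and 2 fell after Ubn2 depletion. Cdkn1a, a cell cycle inhibitor gene, was at 1.24 there and Inhbb at -0.40. After Hira depletion 1 target rose (Cdkn1a, 0.41) and 1 fell (Rbl1, -1.13) by the adjusted p alone. NuRD subunits, the partners of Sall4, had 1 and 0, 0 and 0, and 0 and 0 of 13 called, the 3 SCF core genes had 0 in each, and the 9 PRC2 subunits had 1 and 0, 0 and 0, and 1 and 1. Of the SCF core, which Fbxo15 would join, 0 of 3 passed the adjusted p alone.

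The genes whose course was most like that of a member were named by the smallest root mean square difference over the 6 depleted libraries, in log2 CPM relative to the control mean, among 10355 genes with a mean of at least 10 CPM. Nearest to Pou5f1 were C1qbp and Pomp, at 0.03 each, and nearest to Tdgf1 were Eif4a2 at 0.06 and Malt1 at 0.07. Lin28a had Gm13061 at 0.11, which overlaps it, and Dnah8 at 0.15. Dppa5a had Focad at 0.07 and Gars at 0.08, and Sall4 had Pcyt1a at 0.06 and Slc5a11 at 0.07. Fbxo15 had Ranbp10 at 0.10 and Sh3tc1 at 0.11, both lower after Hira depletion (-0.39 and -0.36) and higher after Ubn2 depletion (0.51 and 0.57). Utf1 had Ehmt2 at 0.07 and Gm15545 at 0.08, and Trim71 had Timm29 at 0.05 and Igfbp3 at 0.06. Small distances are easy to reach for genes that changed little, and the points share their control libraries.

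ESC identity was checked with 6 other markers (Nanog, Zfp42, Esrrb, Fgf4, Dppa4 and Alpl), whose summed level was between 2387 and 2561 CPM in every library. The sum hides changes of single genes. Fgf4 was called lower after Hira (-0.60) and Ubn2 depletion (-0.62), and 0 of the 6 were called higher after any depletion. By the adjusted p alone, 1 rose and 1 fell after Hira, 0 rose and 1 fell after Ubn1, and 2 rose and 2 fell after Ubn2 depletion. Markers of other cell types moved with the depletions beside the changes of the 9 genes. Cardiac muscle markers summed to 197 to 295 CPM after Ubn2 depletion against 26.5 to 28.9 CPM in control, with 7 of 8 called higher and 1 lower. They summed to 27.3 to 28.4 CPM after Hira depletion, with 0 of 5 called higher and 1 lower. The sum was 24.1 to 29.6 CPM after Ubn1 depletion, with 0 of 5 called in either direction. Blood markers summed to 3.77 to 7.13 CPM after Ubn2 depletion and to 0.569 CPM at most elsewhere, with Hbb-bs at 0 in control and Hira libraries. After Hira depletion neural markers summed to 272 to 283 CPM against 128 to 135 CPM in control, with 4 of 6 called higher, and after Ubn1 depletion to 167 to 188 CPM, with 1 of 6 (Tubb3, 0.62) called higher. After Ubn2 depletion they summed to 132 to 137 CPM, with 2 of 6 called higher and 1 lower. Trophoblast markers summed to 87.8 to 106 CPM after Hira depletion against 60.2 to 60.3 CPM in control, with 3 of 6 called higher and 0 lower. Their sum was 59.6 to 64.2 CPM after Ubn1 depletion, with 0 of 4 called. It was 56.5 to 57.3 CPM after Ubn2 depletion, with 1 of 6 called higher (Gata3, 3.88) and 1 lower (Krt8, -0.59). Primed epiblast markers ran from 114 to 137 CPM in control, 134 to 167 after Hira, 159 to 170 after Ubn1 and 192 to 197 CPM after Ubn2 depletion. The Hira range overlapped control, with 2 of 5 tested called higher and 1 lower (Pou3f1, -0.91). After Ubn1 depletion 2 of 5 were called higher and 0 lower, and after Ubn2 depletion 3 of 5 higher and 0 lower. Two-cell-like markers ran from 3.24 to 6.67 CPM in control, 17.6 to 23.3 after Hira, 13.1 to 14.0 after Ubn1 and 23.4 to 32.1 CPM after Ubn2 depletion, with Gm6763, Tcstv1 and Zfp352 at 0 in control. Fibroblast markers summed to 24.5 to 25.6 CPM in control, 34.7 to 36.1 after Hira, 19.0 to 23.3 after Ubn1 and 26.9 to 31.4 CPM after Ubn2 depletion. Of these, 1 of 3 tested was called higher after Hira depletion, 1 of 3 lower after Ubn1 depletion, and 2 of 5 higher (Col3a1 and Col1a2) and 1 lower after Ubn2 depletion, with Dcn, Lum and Col3a1 at 0 in control. Primitive endoderm markers summed to at most 82.9 CPM in any library, with 1 of 7 called higher after Hira and 2 of 7 lower after Ubn1 depletion, and primitive streak markers to at most 16.5 CPM, with 1 of 2 called lower after Ubn2 depletion. The part of these markers in the changes of the 9 genes was not tested.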

How the data were processed

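RNA-seq libraries of E14 ESCs were analysed from the raw gene counts that the authors deposited as 3 tables of 55418 genes, each with the same control columns (0 control counts differ between tables). Per the labels and their processing notes, reads were trimmed with Trim Galore, aligned to GRCm38 with STAR and counted with featureCounts; versions, strand setting and treatment of multiply mapped reads are not given in the sources used here, and they bear on overlapping genes and pseudogenes. All 8 columns were matched to samples by name. Totals were 19710040 to 32706053 counts, and replicates differed by more than sampling noise (chi-square per degree of freedom 5.87 to 12.9).

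Each pair of groups was fitted with edgeR 4.0.16 (TMM scaling, filterByExpr, quasi-likelihood F test, Benjamini-Hochberg over all genes tested; R 4.3.3, limma 3.58.1). Called means adjusted p under 0.05 and fold over 1.5. Alternatives were DESeq2 1.42.0, its size factors in edgeR, other filters on low counts (none, or 10 in each library), a joint fit of the 8 libraries, the replicate number as a term, the adjusted p alone, and leaving out each library. The fits were tested on simulated counts. Gene symbols were matched to GENCODE M21 for coordinates and exon lengths, and 55303 matched 1 gene. Promoter and miRNA sequences are from RefSeq (GRCm38.p6). Plots used Python 3.11.15 and matplotlib 3.10.9.

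Genes named besides the 9 and the targeted genes were, from each list, up to 3 with the smallest adjusted p in a comparison with control, the 2 nearest genes of each member that passed a test, and pseudogenes or antisense genes of members. The members and all lists were chosen with earlier results of these data known.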

Additional observations from a re-analysis of the deposited data

Results flagged for a closer look

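For 4 members the difference between depletions itself passed the edgeR test. Between Hira and Ubn2 depletion the log2 differences were 1.01 for Lin28a, 0.52 for Tdgf1, -0.32 for Sall4 and -1.02 for Fbxo15. Between Hira and Ubn1 depletion the log2 difference of Fbxo15 was -0.56. Between Ubn2 and Ubn1 depletion the log2 differences were -0.79 for Lin28a, -0.38 for Tdgf1, 0.31 for Sall4 and 0.45 for Fbxo15. The depletions also differed in depth at the RNA level, with the targeted gene at log2 fold changes of -3.22 (Hira), -1.03 (Ubn1) and -0.90 (Ubn2). The part of that in these differences was not tested.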

How the results depend on the processing

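With the adjusted p alone, the members counted higher and lower were 2 and 4 for Hira against control, 1 and 3 for Ubn1 against control, 2 and 2 for Hira against Ubn2, 0 and 1 for Hira against Ubn1, and 2 and 2 for Ubn2 against Ubn1. DESeq2, and DESeq2's size factors in edgeR, each called 1 member lower (Fbxo15) for Hira against Ubn1, where edgeR called 0. With single libraries left out, 1 to 2 members were called higher after Ubn2 depletion, 1 without control replicate 1 (Sall4 at 0.57), without control replicate 2 (Fbxo15 at 0.51) and without Ubn2 replicate 1 (Sall4 at 0.55). Those called lower after Ubn2 depletion numbered 2 to 3. For Hira against Ubn2, 1 to 2 were called higher (2 without Hira replicate 2, with Tdgf1 at 0.60). For Hira against Ubn1, 0 to 1 were called lower (1 without Hira replicate 1 or Ubn1 replicate 1). No value reversed a call's direction in any alternative run. Where a group is left with 1 library, that library is assumed to vary like the others.

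The labels share replicate numbers but do not say that they pair libraries, and the correlations of same-numbered deviations ran from -0.138 to 0.13 over 16065 genes. Under a replicate block, members called higher and lower stayed at 0 and 0 (Hira), 0 and 0 (Ubn1), 2 and 3 (Ubn2), 1 and 1 (Hira against Ubn2), 0 and 0 (Hira against Ubn1) and 0 and 1 (Ubn2 against Ubn1). Crossed numbers, chosen after seeing the data, left the counts at 1 and 1 for Hira against Ubn2 and 0 and 0 for Hira against Ubn1. The members had at least 1449 counts in every library.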
